A study of Mus musculus with 72 samples.

Results

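Pancreatic islets of C57BL/6J mice kept on regular chow were compared across the days of a feeding experiment. Differences between the days could thus be read without a change of diet. Each day is a separate set of mice. The comparison used all 11 libraries of this strain and diet that have a column in the deposited table, of 69 libraries in all, and all 14604 genes of that table. They are 4 mice at day 5, 4 mice at day 13 and 3 mice at day 33, and day 33 was set against day 5 with day 13 between. The days follow the sample labels; the series text lists them as 5, 13 and 13. The labels spell the strain C56BL/6J, while the series text spells it C57Bl/6; the diet label is RC, regular chow, and the labels name no transgene, mutation or agent. The other libraries are islets of DBA/2J and BALB/cJ mice on the same chow and of all strains on a high-fat diet (HFD), at the same days.

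Each library held the islets of 1 male mouse, 120 to 150 of them, freed with the enzyme Liberase, picked by hand and left overnight in culture medium before RNA was taken. The age is given as 8 weeks for every sample, and whether that is the age when the feeding began or when the islets were taken is not stated. Expression was read as log2 CPM, the log2 of a gene's reads scaled to the size of its library. The 11 libraries held 19503715 to 32550708 reads over the genes of the table, of which the insulin genes took 14.6% to 19.6%. Day 33 replicate 4 stood apart from the other 10 mice in its immune cell genes: the mean level of the macrophage list was 3.55 log2 CPM in it and 2.55 to 2.99 in the others, and that of the lymphocyte list was 3.05 in it and 0.13 to 1.66 in the others. The running numbers in the sample titles do not overlap between the 3 days of these mice, so whatever those numbers record cannot be told apart from the day.

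Islets are small clusters of endocrine cells: insulin-secreting beta cells make up most of them in mice, with glucagon-secreting alpha cells and somatostatin-secreting delta cells around them. Beta cells of adult mice divide rarely, and their rate of division falls as the animal ages. Islets taken out of the pancreas and cultured also respond to the procedure itself, with immediate early genes, heat shock genes and NF-kB targets among the known responses. The label was checked against the defining marker of the tissue: Ins2, one of the pair of mouse insulin genes, stood at 16.61 to 16.79 log2 CPM in the day 33 mice, 16.63 to 17.05 in the day 13 mice and 16.64 to 17.18 in the day 5 mice. Values below are log2 CPM unless a fold or a difference is named, and levels of different genes on this scale are not per length.

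Between day 33 and day 5, 17 genes rose and 1 fell by limma's moderated test with Benjamini-Hochberg adjustment over all genes at 0.05. These 18 genes are 0.123% of the genes tested, with 0.116% higher and 0.00685% lower, and their adjusted p-values lay between 0.0308 and 0.0469. The median change over all genes was 0.00 on the log2 scale, and 1855 genes had an unadjusted p under 0.05. The genes that rose fall in several functions: enzymes and transporters of metabolism and lipid handling, signalling and channel proteins, proteins of cell division and DNA repair, and 1 RNA-binding protein of the cold response.

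Of the metabolic genes, Aldh1a3 (chr7:66390890-66427517, GRCm38) encodes a dehydrogenase that makes retinoic acid from retinaldehyde and is known as a marker of beta cells that lose their identity in diabetic mice. It stood at 4.10, 3.10 and 2.97 in the day 33 mice, against 2.03, 1.41, 2.24 and 1.08 in the day 5 mice, and at 1.03, 1.76, 2.55 and 1.75 at day 13. Every day 33 mouse lay above all 8 earlier mice, and the mean difference between day 33 and day 5 was 1.70 ± 0.35 on the log2 scale (SE; adjusted p = 0.0308), a 3.25-fold higher level. The gene was counted in 180 to 444 reads per library at day 33 and in 50 to 127 reads at day 5. Slc35f4, a member of the nucleotide-sugar transporter family of solute carriers, stood at 1.46, 1.20 and 0.64 in day 33 mice, against −0.42, −0.71, 0.01 and −1.43 in day 5 mice, a difference of 1.74 ± 0.40 (SE; adjusted p = 0.0469). It rests on 37 to 69 reads per library at day 33 and 7 to 21 at day 5.

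The other metabolic genes rose less. Abcb4, a phospholipid transporter known from bile formation, was 0.66 higher, and Soat1, which esterifies cholesterol for storage, was 0.44 higher, with 5.48, 5.69 and 5.78 at day 33 against 5.22, 5.08, 5.29 and 5.24 at day 5. Dhtkd1, a subunit of a mitochondrial dehydrogenase complex in lysine breakdown, was 0.63 higher. In each of the 3, the lowest day 33 mouse lay above the highest day 5 mouse.

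Among signalling genes, Rasd2, a Ras-like small GTPase, stood at 3.41, 3.02 and 2.94 in day 33 mice, against 1.71, 2.05, 1.87 and 1.68 in day 5 mice, with 1.94 to 2.20 at day 13. Its difference was 1.29 ± 0.28 (SE; adjusted p = 0.0308), and the spread within each day was small beside it. Necab2, a neuronal calcium-binding protein, was 0.77 higher, Trpc4, a cation channel subunit, 0.75 higher, and Kcnab3, an accessory subunit of voltage-gated potassium channels, 0.74 higher. Trpc4 was already at 3.70 and 3.84 in day 13 replicates 1 and 2, close to the 3.71 to 3.89 of day 33, while replicates 3 and 4 at 3.16 and 3.19 lay within the day 5 range.

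**Figure D1:**
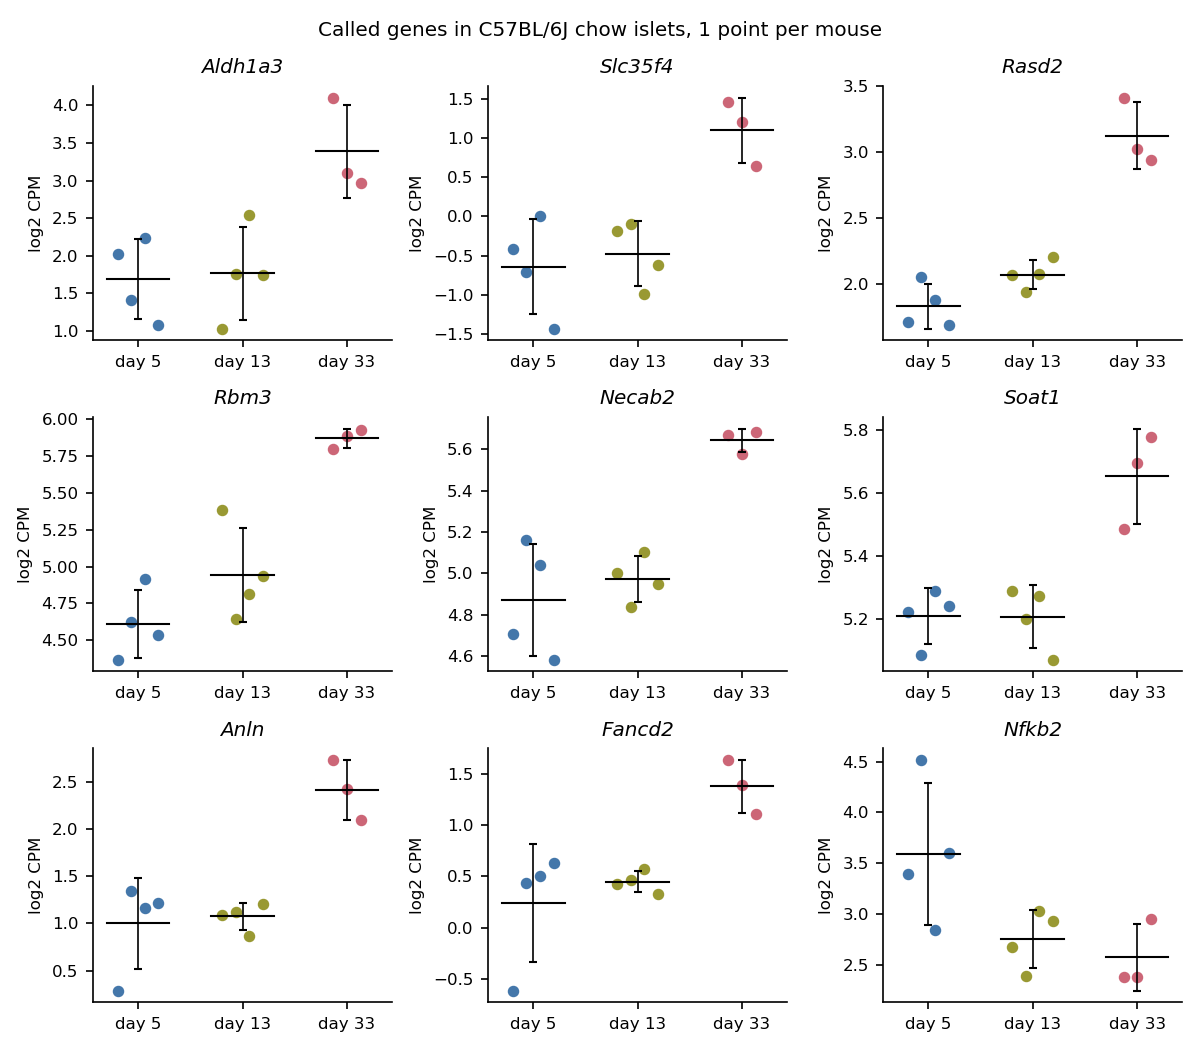
Levels of 9 of the 18 called genes in C57BL/6J chow islets, in log2 CPM on the vertical axes, by day on the horizontal axes. Each point is 1 mouse, the long line is the mean and the bar is 1 SD; in 8 panels every day 33 mouse lies above every day 5 mouse, and in the panel of Nfkb2 the days overlap.

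The genes of cell division that rose were Anln, which encodes anillin of the cleavage furrow (1.41 higher), Mastl, a kinase that cells need to stay in mitosis (1.34), and Arhgap19, a GTPase regulator that acts during cytokinesis (0.86). With them rose 2 genes of DNA repair by homologous recombination and crosslink repair, Rad51ap1 (1.36) and Fancd2 (1.14). Fancd2 stood at 1.63, 1.39 and 1.11 in day 33 mice, against −0.62, 0.44, 0.50 and 0.63 in day 5 mice. The remaining called genes that were higher were Clp1, a kinase of RNA 3′ end processing (0.43), the uncharacterised 9930014A18Rik (0.99) and Rbm3. The gene that fell, Nfkb2, a subunit of NF-kB, overlapped between the days, with 2.38, 2.38 and 2.95 in day 33 mice, against 3.39, 4.52, 2.84 and 3.60 in day 5 mice.

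Aldh1a3, Slc35f4, Anln, Mastl, Arhgap19, Rad51ap1, Fancd2, 9930014A18Rik and Nfkb2 lie outside the rule for named genes and were named after their values were seen. The count of called genes rests on single mice: it was 0 without day 33 replicate 1, 2 or 4 or without day 5 replicate 2, 1 without day 5 replicate 1 or 4, and 38 without day 5 replicate 3. The fit of the 11 libraries alone called 119 genes (83 higher and 36 lower), voom on recovered reads 85 (74 and 11) and log2(CPM + 1) 73 (60 and 13). Of the 18 genes, 12 were among the 119, 17 among the 85 and 17 among the 73. The fit of all C57BL/6J libraries alone called 19 genes, of which 9 were among the 18.

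Just short of the threshold by the naming rule, with adjusted p-values of 0.0605 to 0.0931 by limma, 1 gene was higher at day 33 and 10 were lower, of which 9 are described. The orphan nuclear receptor gene Esrrg, known for its part in the oxidative metabolism of mature beta cells, differed by 0.71, with 5.09, 4.80 and 5.02 in day 33 mice, against 4.30, 3.99, 4.65 and 4.08 in day 5 mice. Tuba1a, an alpha-tubulin, differed by −0.54, the collagen gene Col20a1 by −0.96, the histone gene Hist3h2ba by −0.74 and Wwc1, a Hippo pathway scaffold, by −0.53. Arhgap39 and Zgpat, a GTPase regulator and a zinc-finger protein, differed by −0.48 and −0.50. In these 7 the day 33 and day 5 mice did not overlap, and the remaining 3, Jun, Irf1 and Tnfaip3, belong to lists described further on.

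The genes of DNA replication and mitosis stood higher as a group at day 33 without any of the 38 passing the test. They encode the machinery that copies the genome and segregates the chromosomes, and their summed level in a tissue follows the share of cells in cycle. Of the 38 genes, 36 had a positive difference between day 33 and day 5, with a median of 1.11 on the log2 scale beside 0.00 over all genes. In 26 of them every day 33 mouse lay above every day 5 mouse, where 9.72% of all genes did so, and in 22 every day 33 mouse lay above all 8 earlier mice, where 4.56% of all genes did so. The mean level over the list was 3.00, 2.83 and 2.48 in the day 33 mice, 1.80, 2.06, 1.75 and 2.08 in the day 13 mice and 1.34, 2.11, 1.93 and 1.99 in the day 5 mice. All 3 day 33 mice lay above all others, and the median was 0.87 to 1.25 when any 1 mouse of either day was left out. The count of 26 became 26 to 30, but such a count cannot fall when a mouse is left out. The share of all genes rose as well, to between 11.8% and 17.2%. The median was 0.68 with log2(CPM + 1), 0.24 over the 15 members above a mean log2 CPM of 2, and 2.31 once the title number entered the model as a covariate. That fit takes its slope from mice within groups and extends it across days whose numbers do not overlap, so 2.31 is an extrapolation. In the mean level over the list, day 5 replicate 1 was the lowest of the 11.

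The members differed among themselves in the size of the difference. Mki67, the common marker of cycling cells, stood at 5.27, 4.98 and 4.23 in day 33 mice, against 2.66, 3.87, 3.77 and 3.84 in day 5 mice, a difference of 1.29 ± 0.46 (SE; adjusted p = 0.214). Top2a, the topoisomerase that untangles chromosomes before division, stood at 5.12, 4.71 and 4.10 at day 33, against 1.75, 3.31, 3.14 and 3.29 at day 5, a difference of 1.77 (adjusted p = 0.176). The mitotic genes Cenpf, Bub1, Ube2c, Nusap1, Kif11 and Cdc20 differed by 1.95, 1.82, 1.74, 1.57, 1.46 and 1.44. The cyclin gene Ccna2 differed by 1.35 and Foxm1, the transcription factor that drives mitotic genes, by 0.97. Mcm2 to Mcm7, the 6 subunits of the replicative helicase, differed by 0.01 to 0.37 with a median of 0.27, Pcna, the sliding clamp, by 0.10, and Rrm1, a subunit of ribonucleotide reductase, by 0.25; this subdivision was made after the values were seen. No member was called, while the fit of the 11 libraries alone called 11 of the 38 higher, voom 10 and log2(CPM + 1) 8. In bulk tissue more cells in cycle and more of these transcripts per cell cannot be told apart.

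Many mitotic promoters carry the cell cycle genes homology region, TTTGAA on either strand, through which the genes are silenced outside of the division phases. It was searched in the 250 bases before the start of each gene in RefSeq promoters (GRCm38.p6). It was found in 8 of the 31 list members with a promoter entry, 25.8%, beside 16.3% of all 27025 promoters and 10.4% of the 11015 promoters of genes in the table. The windows of 3 mitotic genes named above are shown for where the motif, in capitals, lies before the start, 5′ to 3′ on the gene's own strand: Top2a (chr11:99024190-99024289, minus strand), Ube2c (chr2:164769829-164769928, plus strand) and Kif11 (chr19:37376282-37376381, plus strand).
Top2a: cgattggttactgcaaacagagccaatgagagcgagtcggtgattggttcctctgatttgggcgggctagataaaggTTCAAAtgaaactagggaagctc
Ube2c: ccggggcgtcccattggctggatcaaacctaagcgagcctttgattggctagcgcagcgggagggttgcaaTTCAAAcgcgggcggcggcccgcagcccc
Kif11: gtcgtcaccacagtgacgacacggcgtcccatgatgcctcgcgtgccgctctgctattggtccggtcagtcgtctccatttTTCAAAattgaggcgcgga

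The same genes were read in the other mice of the series, which share no library with the C57BL/6J chow comparison. The median difference of the 38 genes between day 33 and day 5 was 0.03 in C57BL/6J mice on the high-fat diet, 0.18 in BALB/cJ chow mice and −0.15 in DBA/2J chow mice. The difference between C57BL/6J chow and each of these had a median over the list of 0.85, 0.83 and 1.28. No member passed the test of such a difference in limma, so the higher level is described in C57BL/6J chow islets and is not shown to be theirs alone.

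**Figure D2:**
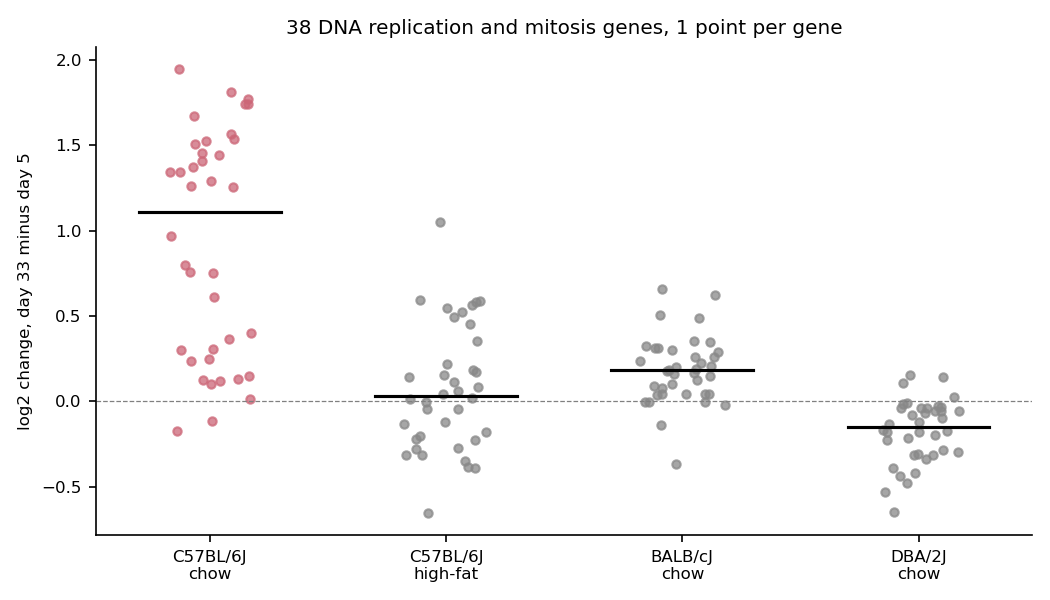
Change of the 38 DNA replication and mitosis genes between day 33 and day 5 on the vertical axis (log2), in C57BL/6J chow islets and in 3 comparisons of other mice. Each point is 1 gene and the line is the median: 1.11 in C57BL/6J chow, 0.03 in C57BL/6J high-fat, 0.18 in BALB/cJ chow and −0.15 in DBA/2J chow mice.

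The immediate early genes, which are switched on within minutes of a stimulus and include those of the AP-1 transcription factors, were lower at day 33. Of 15 genes, 13 had a negative difference, with a median of −0.83, none was called, and in 8 every day 33 mouse lay below every day 5 mouse, where 7.74% of all genes did so. With the list's own mean level as a covariate the median was −0.12. That covariate is made from these same genes, so the smaller value was fixed in advance and does not bear on the difference. Fos stood at 3.93, 4.23 and 4.78 in day 33 mice, against 7.15, 6.28, 6.66 and 6.81 in day 5 mice, a difference of −2.41 ± 0.82 (SE; adjusted p = 0.184). Fosb differed by −3.56, Jun by −1.80 and Junb by −1.59. Dusp1, a phosphatase that ends the signal, stood at 3.63 to 3.93 in day 33 mice, against 4.63 to 4.97 in day 5 mice. At day 13 the 4 mice fell into pairs: Fos stood at 3.38 and 3.14 in replicates 1 and 2 and at 6.36 and 6.50 in replicates 3 and 4. The mean level over the list was 2.67 and 2.66 in the first pair, below every day 33 mouse, and 3.82 and 3.92 in the other, near the 3.85 to 4.08 of day 5. The day 13 mice thus lay near both ends of the range of the 11 mice, with none between.

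The heat shock genes, which encode chaperones for unfolded proteins, followed the same pairs of mice. In the list of 12 heat shock and cold-inducible genes, 9 lay below every day 5 mouse in every day 33 mouse and 2 above, beside 7.74% and 9.72% of all genes, with a median difference of −0.59. With the title number as a covariate the median was 0.12, an extrapolation, since these numbers do not overlap between the days. Hspa1a, the inducible Hsp70, stood at 0.48, 1.14 and 1.42 in day 33 mice, against 4.87, 3.44, 3.80 and 3.69 in day 5 mice, a difference of −2.94 ± 0.78 (SE; adjusted p = 0.0934). At day 13 it was 1.38 and 0.95 in replicates 1 and 2, and 4.78 and 4.19 in replicates 3 and 4. Its neighbour Hspa1b, which is a near copy, differed by −2.67, and reads of the pair cannot be assigned with certainty. The small heat shock protein gene Hspb1 differed by −1.18 and the mitochondrial chaperonin Hspe1 by −0.68.

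The 2 members that were higher are the cold-inducible RNA-binding proteins, which are known to be induced by mild cooling while heat shock genes are induced by warming. Rbm3 (chrX:8138975-8145880) stood at 5.80, 5.88 and 5.93 in day 33 mice, against 4.37, 4.63, 4.92 and 4.53 in day 5 mice, a difference of 1.26 ± 0.27 (SE; adjusted p = 0.0308), and was the list member called. Cirbp stood at 6.46, 6.64 and 6.70 in day 33 mice, against 6.00, 6.03, 6.15 and 5.64 in day 5 mice, a difference of 0.65 (adjusted p = 0.276). Over all 35 lists, Rbm3 was the only member called between day 33 and day 5. At day 13 Rbm3 did not divide the mice into the pairs seen for Hspa1a, with 5.39 and 4.64 in replicates 1 and 2, and 4.81 and 4.94 in replicates 3 and 4.

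The heat shock factor binds pairs of inverted nGAAn units. The palindrome GAANNTTC, which reads alike on both strands, was present in the 250 bases before the start in 4 of the 9 list members with a RefSeq promoter entry (GRCm38.p6), 44.4%, beside 6.78% of all 27025 promoters and 4.89% of those of genes in the table. The windows of 3 members with negative differences are given with the motif in capitals, 5′ to 3′ on the gene's strand: Hspa1a (chr17:34972221-34972320, minus strand), Hspb1 (chr5:135887762-135887861, plus strand) and Hspe1 (chr1:55088004-55088103, plus strand). That of Hspa1b has the letters of Hspa1a throughout.
Hspa1a: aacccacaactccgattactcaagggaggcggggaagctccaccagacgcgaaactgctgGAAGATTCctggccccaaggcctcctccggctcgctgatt
Hspb1: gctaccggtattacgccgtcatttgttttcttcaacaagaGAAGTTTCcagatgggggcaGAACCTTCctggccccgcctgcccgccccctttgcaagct
Hspe1: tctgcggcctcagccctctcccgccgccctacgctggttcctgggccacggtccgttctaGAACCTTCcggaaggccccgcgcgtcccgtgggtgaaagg

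Chaperones of the endoplasmic reticulum, where beta cells fold proinsulin, had smaller differences of the same sign. Of 27 genes, 22 had a negative difference, with a median of −0.16, and 11 lay below every day 5 mouse in every day 33 mouse, beside 7.74% of all genes; none was called. With the title number as a covariate the median was 0.02, again an extrapolation across days whose numbers do not overlap. Creld2 stood at 6.02, 6.09 and 5.83 in day 33 mice, against 6.84, 6.94, 6.36 and 6.86 in day 5 mice, a difference of −0.77 (adjusted p = 0.157). Pdia6, a disulfide isomerase, differed by −0.48, Hyou1 by −0.43, Pdia4 by −0.41 and Hspa5, the main chaperone of this compartment, by −0.26 with overlap between the days. At day 13 the mean level over the list was 8.14 and 8.21 in replicates 1 and 2, and 8.46 and 8.46 in replicates 3 and 4, again in pairs.

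Targets of NF-kB, the transcription factor of the inflammatory response, were high in 2 of the 4 day 5 mice. Nfkbia, the inhibitor that NF-kB itself induces, stood at 4.68, 4.57 and 4.84 in day 33 mice, against 4.87, 7.20, 4.56 and 5.78 in day 5 mice, a difference of −0.91 (adjusted p = 0.101). Tnfaip3, which ends the NF-kB signal, stood at 2.59, 2.97 and 3.09 at day 33, against 2.88, 5.28, 3.15 and 4.40 at day 5, a difference of −1.04 (adjusted p = 0.0744). In both genes, and in Nfkb2, day 5 replicates 2 and 4 were the highest mice. The other day 5 mice lay near the day 33 range in Nfkbia and Tnfaip3. In Nfkb2, day 5 replicate 1 lay above that range and closer to replicate 4. Of the 7 genes of the list, 6 had a negative difference, with a median of −0.45; Icam1 (−0.80) was the member without overlap, and Birc3 differed by −0.30. Irf1, the interferon regulatory factor, differed by −0.48, with its highest value, 6.16, in day 5 replicate 2 too. The 26 interferon-induced and MHC class I genes had a median of −0.16, and 6 of them lay below every day 5 mouse, beside 7.74% of all genes. The count was 10 without day 33 replicate 2, beside 12.4% of all genes. The median was −0.06 without day 33 replicate 4 and −0.09 without day 5 replicate 2.

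**Figure D3:**
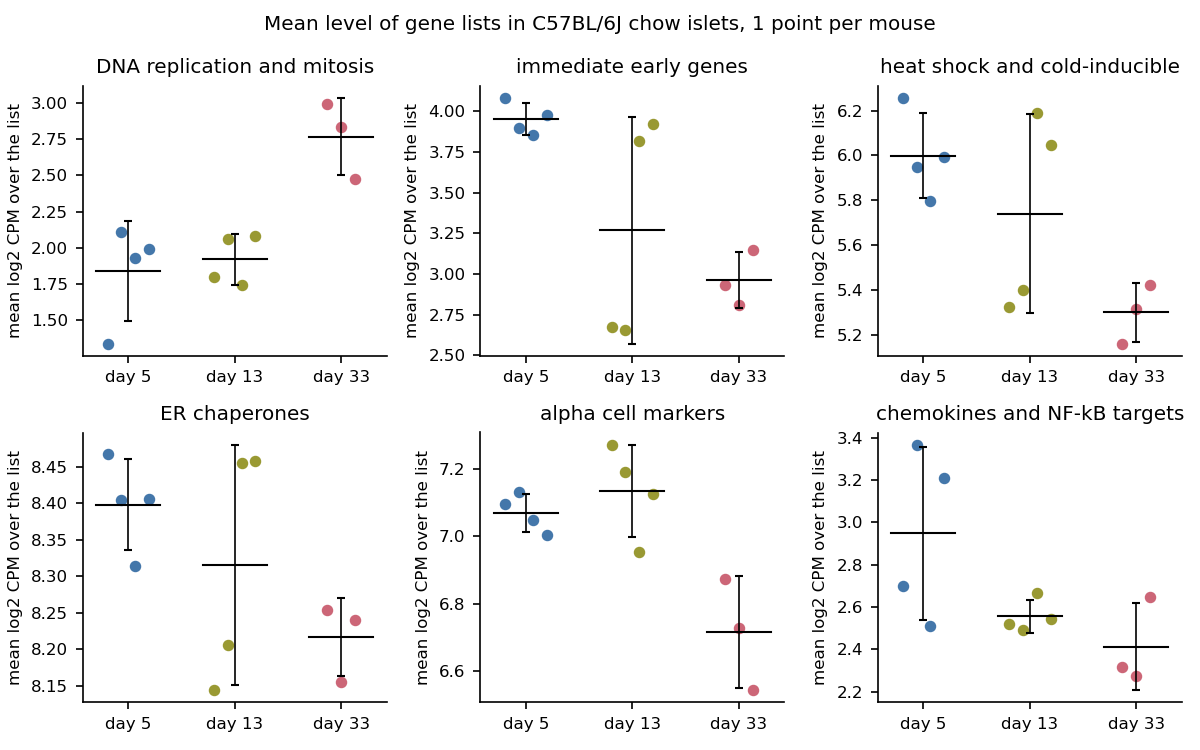
Mean level of 6 gene lists in log2 CPM on the vertical axes, by day on the horizontal axes, 1 point per C57BL/6J chow mouse with the mean (long line) and 1 SD (bar). The day 33 mice are highest in DNA replication and mitosis; the day 13 mice lie in pairs in the immediate early, heat shock and endoplasmic reticulum (ER) panels.

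Marker lists of the endocrine cell types other than beta cells had negative medians at day 33, and none of their genes was called. Of the 8 alpha cell markers in the table, 7 had a negative difference, with a median of −0.43; 5 lay below every day 5 mouse in every day 33 mouse, beside 7.74% of all genes, and 4 lay below all 8 earlier mice, where 3.12% of all genes did so. The transcription factor genes Irx1 and Irx2 differed by −0.56 and −0.43, and Irx2 stood at 4.26, 4.06 and 3.77 in day 33 mice, against 4.49, 4.51, 4.30 and 4.53 in day 5 mice. Gcg, the glucagon gene itself, overlapped between the days and differed by −0.24 (adjusted p = 0.639). The mean level over the list was 6.87, 6.73 and 6.54 at day 33, and 7.07 ± 0.06 (SD, n = 4) at day 5, so that every day 33 mouse lay below every day 5 mouse. Between the same days the median over these markers was −0.50 in C57BL/6J high-fat, −0.25 in DBA/2J chow and −0.01 in BALB/cJ chow mice. In the high-fat mice 2 of them were called lower, beside 19 of all 14604 genes. Fewer cells of a type and less RNA per cell cannot be told apart in these bulk samples.

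Delta cell markers had a median of −0.29 over 7 genes, with 3 below every day 5 mouse, beside 7.74% of all genes. The count was 5 without day 33 replicate 2, beside 12.4% of all genes, and the median −0.18 without day 33 replicate 4. The mean level over the list was 4.15 to 4.38 in day 33 mice and 4.49 to 4.65 in day 5 mice, without overlap. Pdyn, a prodynorphin expressed in delta cells of mouse islets, differed by −0.90, and Ffar4, a fatty acid receptor of these cells, by −0.50. The somatostatin gene Sst overlapped, with 10.98, 11.11 and 10.82 in day 33 mice and 11.10, 11.46, 11.25 and 11.09 in day 5 mice. The 5 markers of PP and epsilon cells had a median of −0.36, with 4 negative and none below every day 5 mouse; their mean level was 5.75, 6.64 and 6.24 in day 33 mice and 6.34 to 6.65 in day 5 mice.

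The list of beta cell genes had a smaller median difference. Over 30 genes of beta cell identity and function the median was −0.10, 23 were negative, 5 lay below and 2 above every day 5 mouse, beside 7.74% and 9.72% of all genes, and none was called. Without day 5 replicate 4, 10 lay below, and without day 5 replicate 3, 8 did, beside 10.8% of all genes in each case. Without day 33 replicate 2, 8 did, beside 12.4%. Such counts cannot fall when a mouse is left out. The mean level over the list was 9.35 to 9.39 in day 33 mice and 9.42 to 9.48 in day 5 mice. Every day 33 mouse thus lay below every day 5 mouse here too. Mafa, a transcription factor of mature beta cells, stood at 5.54, 5.33 and 5.39 in day 33 mice, against 6.33, 6.52, 6.05 and 5.59 in day 5 mice, a difference of −0.70 (adjusted p = 0.275). The prolactin receptor gene Prlr differed by −0.41 and Ucn3, a late marker of maturity, by −0.22. Neurod1, a transcription factor of endocrine cells, overlapped between the days, at −0.21. Iapp, which encodes the amyloid peptide secreted with insulin, was among the 7 positive genes, with 14.48, 14.40 and 14.56 in day 33 mice, against 14.30, 14.27, 14.22 and 14.31 in day 5 mice, a difference of 0.21 (adjusted p = 0.447). Genes that are lower in mature than in young beta cells were negative in all 15 of those measured, with a median of −0.25 and none called. Of 21 genes that beta cells normally keep silent, 17 were negative, with a median of −0.26 and none called.

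Lists of metabolism and of other programmes held no called gene. The list of PPAR targets and fatty acid oxidation, 35 genes, had a median of 0.13, and 9 lay above every day 5 mouse, beside 9.72% of all genes, among them Ppargc1a, the coactivator of mitochondrial genes, which differed by 0.65, and Acsl1, which activates fatty acids, by 0.36. The 53 genes of oxidative phosphorylation had a median of −0.08, with 10 below every day 5 mouse, beside 7.74% of all genes. Without day 33 replicate 1, 17 lay below, beside 1611 of all 14604 genes. Without day 33 replicate 2 the median was −0.03. In that case 10 lay below and 6 above, 18.9% and 11.3% of the list, beside 12.4% and 17.2% of all genes. Counts of this kind cannot fall when a mouse is left out. The 19 clock genes had a median of 0.22. Per1 stood at 5.56, 5.51 and 5.71 in day 33 mice, against 5.05, 5.15, 4.92 and 4.81 in day 5 mice, and Hlf, a clock output gene, differed by 0.67, while Arntl, which encodes the clock activator BMAL1, differed by −0.62. The hour at which islets were taken is not given in the labels, so its part in these values was not tested.

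Markers of cells from outside the islet varied widely within day 5. The mean level of 30 acinar genes, which encode digestive enzymes, was 3.40, 3.01 and 4.19 in day 33 mice, and 2.59, 4.55, 6.63 and 5.69 in day 5 mice, with a median difference of −1.32 and full overlap. Markers of stellate cells and fibroblasts had a median of −0.57 over 18 genes, with 3 below every day 5 mouse, beside 7.74% of all genes, and macrophage markers a median of 0.09 over 14. With the acinar level as a covariate 43 genes were called, with the macrophage and endothelial levels 18, and with the stellate level 12. The part of these cells in the called genes was otherwise not tested.

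**Figure D4:**
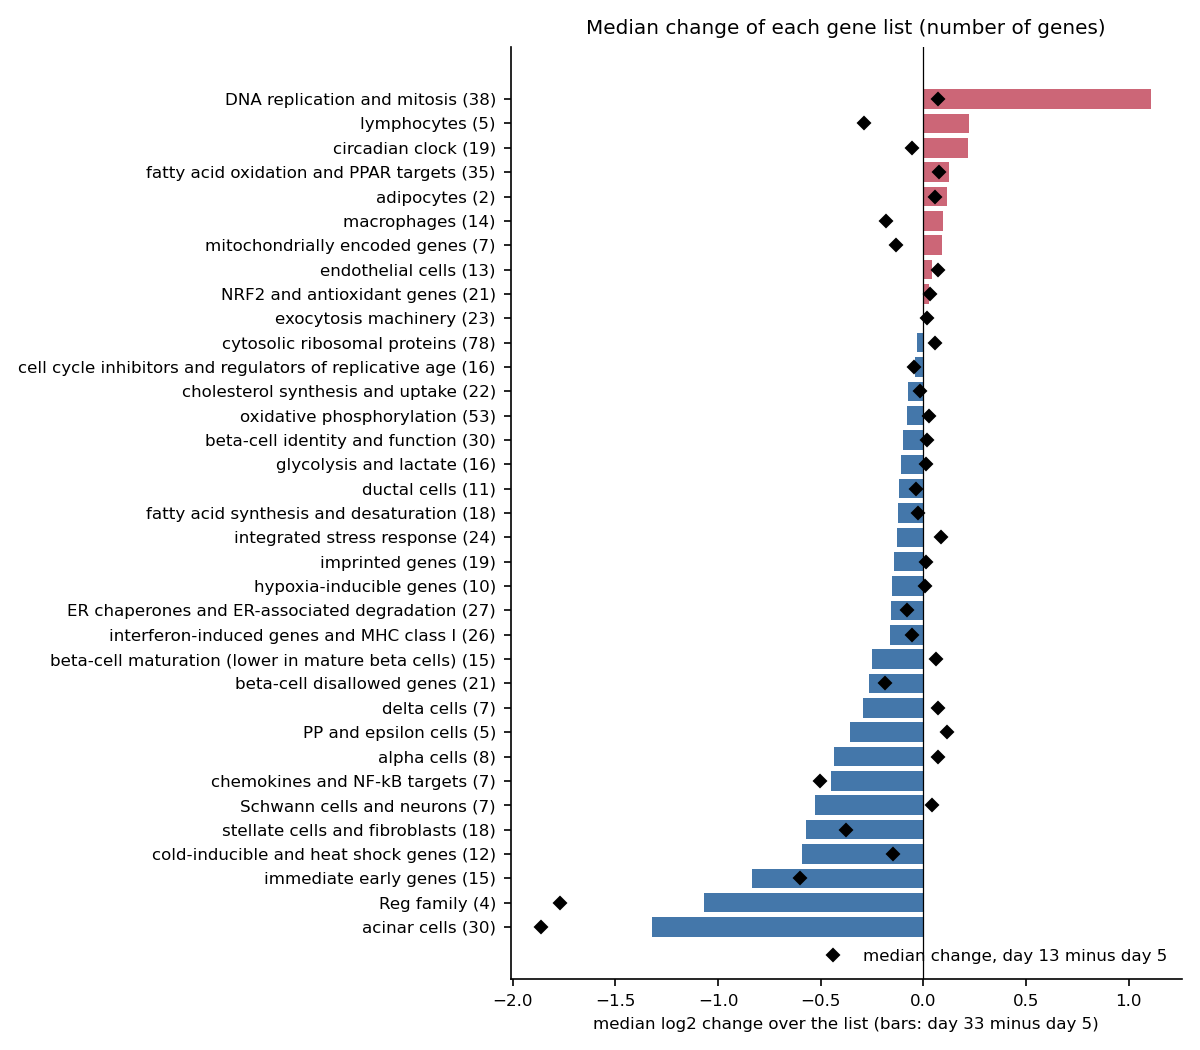
Median log2 change over each of the 35 gene lists, day 33 minus day 5 as bars and day 13 minus day 5 as diamonds, with the number of genes measured in parentheses. DNA replication and mitosis stands at 1.11 with its diamond near 0, while the immediate early genes stand at −0.83 with a diamond at −0.60.

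Between day 13 and day 5, Ide alone was called, 0.00685% of the genes tested, and 422 genes had an unadjusted p under 0.05. Ide encodes the insulin-degrading enzyme and lies at chr19:37268743-37337852. It stood at 6.14, 6.00, 6.35 and 5.95 in day 13 mice, against 5.29, 5.18, 5.34 and 5.34 in day 5 mice, a difference of 0.82 ± 0.14 (SE; adjusted p = 0.00239), and at 5.30, 5.11 and 5.25 in day 33 mice. The level at day 13 thus stood alone and did not carry on to day 33. Fgfbp3, a carrier of fibroblast growth factors at chr19:36917550-36919615, had the same pattern. It stood at 3.39, 2.78, 3.29 and 2.74 in day 13 mice, against 2.24, 1.59, 1.93 and 1.74 in day 5 mice (adjusted p = 0.091 by limma). Btaf1, a gene between the pair, had a smaller difference, at 6.07 to 6.22 in day 13 mice and 5.73 to 6.02 in day 5 mice. Cpeb3 and March5, which also lie between the pair, overlapped between the days. Cpeb3 stood at 5.41 to 5.68 in day 13 mice and 5.41 to 5.82 in day 5 mice, and March5 at 4.53 to 4.69 and 4.62 to 4.69.

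In the C57BL/6J mice on the high-fat diet the levels of Ide were 5.75 to 6.27 at day 5, 5.10, 5.05, 6.15 and 5.67 at day 13 and 5.03 to 5.36 at day 33, and Fgfbp3 was high in the same mice of day 13, at 3.24 and 2.83 against 2.11 and 1.80. In the 46 libraries of DBA/2J and BALB/cJ mice Ide stayed between 4.82 and 5.49 and Fgfbp3 between 0.83 and 2.45. A difference in copy number that takes in both genes is known to segregate among C57BL/6J mice. Copy number was not measured here.

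**Figure D5:**
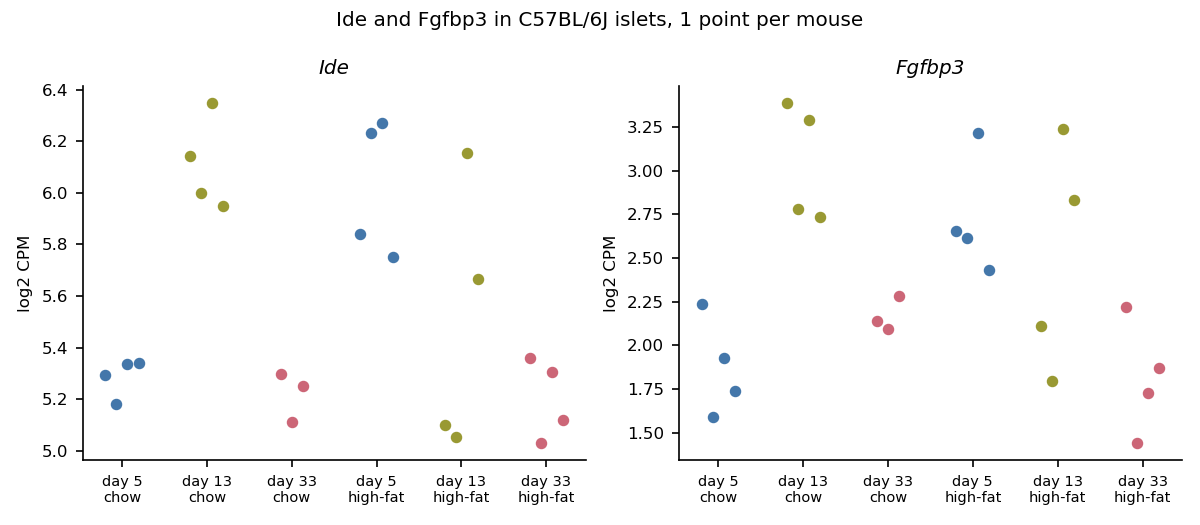
Levels of Ide and Fgfbp3 in log2 CPM on the vertical axes, by day and diet on the horizontal axes, 1 point per C57BL/6J mouse. The 4 chow mice of day 13 stand at 5.95 to 6.35 for Ide, above all chow mice of days 5 and 33, and day 13 mice on the high-fat diet lie both high and low.

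Between day 33 and day 13, 7 genes rose and 3 fell, 0.0685% of the genes tested. Aldh1a3, Anln and Soat1 rose in this step as they did from day 5. With them rose Cks2, a cofactor of cyclin-dependent kinases, by 1.80 ± 0.38 (SE; adjusted p = 0.0377), and Smc2, a condensin subunit that compacts mitotic chromosomes, by 0.85. Cks2 stood at 1.17, 0.53 and 0.71 in day 33 mice, against −0.74, −1.81, −0.61 and −0.81 in day 13 mice. Serpina7, which encodes thyroxine-binding globulin, was 1.08 higher and Cd59a, a complement inhibitor, 0.73 higher. The genes that fell were Ide, Avpr1b, a vasopressin receptor gene (−0.96), and the pseudogene Bambi-ps1 (−1.23). Leaving out 1 mouse gave 0 to 13 calls, and the 2 day 13 mice with low immediate early genes alone gave 0.

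The 17 genes that rose between day 5 and day 33 were then read in mice with no library in common. The title numbers of their day 33 mice lie in the same range as those of C57BL/6J chow. Their day 5 numbers are higher than this range in BALB/cJ and DBA/2J chow mice, as in C57BL/6J chow, and lower in the high-fat mice. What the numbers record was therefore not told apart from the day in these comparisons. In BALB/cJ chow mice 15 of the 17 had a positive difference between day 33 and day 5, beside 52.2% of all genes. Of the 17, 8 had an unadjusted p under 0.05 in limma, beside 915 of all 14604 genes, and none was called. In C57BL/6J mice on the high-fat diet 14 were positive, beside 51.1% of all genes, and 2 were called, beside 34 of all 14604 genes. In DBA/2J chow mice 8 were positive, beside 46.4%. Aldh1a3, Arhgap19, Kcnab3, Necab2, Rasd2, Slc35f4, Soat1 and Trpc4 were positive in all 3, as were 14.7% of all genes. Rasd2 differed by 1.35 in C57BL/6J high-fat, 1.01 in BALB/cJ chow and 0.48 in DBA/2J chow mice, and Aldh1a3 by 0.31, 1.06 and 1.59.

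Tests of whether the change between day 5 and day 33 differed from that of other mice called few genes. Against DBA/2J chow 31 genes passed, 0.212% of those tested, with 20 positive and 11 negative (8 and 8 with each library centred on its median gene). Rbm3 was among them: its change was 1.26 in C57BL/6J chow and −0.78 in DBA/2J chow mice, a difference of 2.04 ± 0.38 (SE, adjusted p = 0.0133 by limma). In C57BL/6J high-fat mice Rbm3 stood at 5.69 to 6.11 at day 5 and 5.59 to 6.20 at day 33. The C57BL/6J chow mice of these days stood at 4.37 to 4.92 and 5.80 to 5.93. Against BALB/cJ chow 0 genes passed, 0.0%, in limma and also by voom, with 935 at an unadjusted p under 0.05. Against C57BL/6J mice on the high-fat diet 3 genes passed, 0.0205%. Per1 was one of them, with a change of 0.61 in chow mice and −0.96 in high-fat mice, a difference of 1.57 ± 0.31 (SE; adjusted p = 0.0304). It stood at 6.48, 6.24, 6.69 and 7.20 in the high-fat mice of day 5, above all 4 chow mice of that day. The others were Trib1, a pseudokinase gene, with a difference of 1.05, and Pole, the catalytic subunit of DNA polymerase epsilon, with 2.44.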

How the data were processed

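RNA-seq of mouse islets was deposited as 1 table of 14604 genes and 69 libraries in log2 CPM, which the authors made with STAR 2.5.3a, HTSeq 0.9.1 and edgeR on GRCm38, per the submitters' processing notes; filters and pseudocount are not given in the sources used here. Columns were matched to 69 of 72 samples by title; 3 samples are not analysed here. Gene positions and 47 symbols came from GENCODE release 21 (GRCm38). A common floor of −3.54 log2 CPM and whole multiples above it gave whole reads, used for depth and for voom.

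Main test: limma 3.58.1 (R 4.3.3) on the deposited log2 CPM, 1 mean per group over all 18 groups, eBayes with trend, two-sided, Benjamini-Hochberg over all genes of a contrast, 0.05. It was tested on simulated data. Named genes are those with the largest changes among called, non-overlapping genes, filled by lowest p, and up to 4 per list. The comparison, lists and tests were chosen with earlier results of these data known. Alternatives covered normalization, weights, covariates and left-out mice. Each library is 1 mouse, so p-values measure the spread between these mice.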

Additional observations from a re-analysis of the deposited data

Results flagged for a closer look

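In 15 of the 240 groups of 4 mice that were examined, 1 mouse lay farther from the other 3 than Dixon's 95% limit; chance flags about 1 in 20 groups. Day 5 replicate 1 was the low mouse in 6 of them: Anln at 0.29 log2 CPM, Fancd2 at −0.62, Mki67 at 2.66, Ccna2 at 0.94, Top2a at 1.75, and the mean of the Reg family list at −1.13. Day 5 replicate 3 was low for Hist3h2ba at 2.40, Creld2 at 6.36 and Pdia4 at 7.80. At day 13, Cirbp was low in replicate 2 at 5.68, and Cks2 at −1.81. In day 13 replicate 1 Pdyn was low at 6.60 and Irx1 high at 3.79, and in replicate 3 Gcg was low at 14.9 and the mean of the ductal list high at 4.56.

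The change between day 5 and day 33 differed between C57BL/6J chow and DBA/2J chow mice in 31 genes by the test of the difference. Among those of lowest p were Rbm3 (2.04 on the log2 scale), Ranbp17 (1.15), Zranb1 (0.85), Ino80c (0.77) and Gbf1 (−0.53). It differed between C57BL/6J chow and C57BL/6J high-fat mice in 3 genes, with Per1 at 1.57 and Trib1 at 1.05.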

How the results depend on the processing

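For day 33 minus day 5 (18 genes) the count was 119 with the 11 libraries alone, 85 by voom on recovered reads, 73 with log2(CPM + 1), 7 with genes above a mean log2 CPM of 2, 921 with array weights, 155 with the title number as a covariate (4 shared with the 18) and 43 with the acinar level. For day 33 minus day 13 (10 genes) voom gave 34, log2(CPM + 1) 32, the filter 6, array weights 2195 and the title number 70; all C57BL/6J libraries alone gave 0, centring 1, macrophage and endothelial levels 1, the stellate level 21, the immediate early gene level 1, and day 13 replicates 1 and 2 alone 0. For day 13 minus day 5 (1 gene) it was 2 with the 11 libraries alone, 2 by voom, 2 with log2(CPM + 1), 6 with array weights, 0 with all C57BL/6J libraries alone and 0 with day 13 replicates 1 and 2 alone. For the difference from DBA/2J chow (31 genes), voom gave 70, log2(CPM + 1) 73, the filter 47, the acinar level 14, the stellate level 18, centring 16, array weights 2007, the title number 1, macrophage and endothelial levels 2 and the immediate early gene level 240. For that from BALB/cJ chow (0 genes), array weights gave 23 and the title number 1, and for that from C57BL/6J high-fat (3 genes), voom gave 7, array weights 889, the title number 113 and the immediate early gene level 5. Leaving out 1 mouse gave 0 to 38, 0 to 13, 0 to 4, 1 to 104, 0 to 0 and 0 to 3 calls in these 6 comparisons. With the title number as a covariate 7 changes between day 5 and day 33 turned sign: Slc35f4 (−0.073), Hspe1 (0.048), Cirbp (−0.31), Hspa5 (0.035), Ins2 (0.027), Ide (0.33) and Hspb1 (0.032). So did the medians of the heat shock and cold-inducible list (0.12) and the ER chaperone list (0.02). The title number fit extends a slope from within groups across days whose numbers do not overlap, so its values are extrapolations. The causes were not tested. The immediate early gene covariate and the split of the day 13 mice were chosen after seeing the data. No paired analysis was possible because title numbers do not recur between days of C57BL/6J chow mice. edgeR and DESeq2 were not run, as the deposited unit is log2 CPM. Depth limits genes of low level, such as Slc35f4.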

Other observations

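The pairs seen among day 13 chow mice in Fos and Hspa1a were also read in the C57BL/6J mice on the high-fat diet of that day. Fos stood at 4.34 and 4.88 in replicates 1 and 2, in either order, and at 6.58 and 6.98 in replicates 3 and 4, and Hspa1a stood at 2.11 and 2.62 and at 3.76 and 4.46 in the same pairs. In both diets the low pair has the lower of the running numbers in the sample titles. What those numbers record was not tested.

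Among 19 imprinted genes 15 had a negative difference between day 33 and day 5, with a median of −0.14, and 5 lay below every day 5 mouse, beside 7.74% of all genes, with Peg10 at −0.83. The Reg family, 4 genes of secreted lectins made by acinar and stressed islet cells, had a median of −1.07 with overlap between the days. The 10 hypoxia-inducible genes had a median of −0.15 and the 78 cytosolic ribosomal protein genes one of −0.03.

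In day 33 replicate 4, Lyz2, a gene of macrophages and neutrophils, stood at 6.95 log2 CPM, where the other 2 day 33 mice had 4.53 and 3.86. Igkc, the immunoglobulin kappa constant gene of B lineage cells, stood at 4.69, where they had 0.12 and 1.01. The mice of days 5 and 13 had 3.64 to 5.90 for Lyz2 and −0.99 to 2.66 for Igkc.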
